A study of Mus musculus with 16 samples.

Results

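Small leucine-rich proteoglycans (SLRPs) are secreted proteins of the collagen matrix, and the transcripts of 10 of them were followed here in mouse cortical bone. The genes are Dcn (decorin), Bgn (biglycan), Aspn (asporin), Lum (lumican), Fmod (fibromodulin), Prelp, Kera (keratocan), Omd (osteomodulin), Ogn (osteoglycin) and Podn (podocan). They were chosen by name as members of the family, and each was found once among the 36829 features of the RNAseq files. All 10 averaged at least 0.5 RPKM, the minimum set for testing. RPKM corrects the read number of a gene for gene length and library size.

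The RNA came from the femoral cortex of 16 female C57Bl/6 mice, 11 weeks old, with no genetic alteration given. In 8 mice (Control 1 to 8) the limbs bore weight normally, and in 8 mice (HLU 1 to 8) the hindlimbs were unloaded for 7 days by suspension of the tail. The ends of the bone were cut off and the marrow was flushed out, so that the sample was a piece of shaft with whatever other tissue remained on or in it. Each mouse gave its own library.

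SLRPs have a core of leucine-rich repeats that binds fibrillar collagen, and many carry chondroitin, dermatan or keratan sulfate chains. They set the width and spacing of collagen fibrils, and several bind growth factors of the TGF-beta family. Mice that lack biglycan have low bone mass, and decorin and biglycan are the classical SLRPs of bone matrix.

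Library size, the read total behind the RPKM values, was lowest in Control 2 (7067512) and HLU 5 (7838277) and highest in HLU 6 (21363584). Dcn had between 3562 and 30802 recovered reads per mouse, and the least abundant gene, Podn, had between 11 and 194. The markers of osteoblasts and osteocytes were present, with 12 of 12 kept and a summed level of 635 to 1840 RPKM per mouse. Markers of residual blood cells were far more abundant, the 10 granulocyte genes kept summing to between 12931 and 45946 RPKM.

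Several of these genes lie side by side in the mouse genome. In the GENCODE M21 annotation of GRCm38, Dcn, Lum and Kera follow each other on chromosome 10, ahead of the related gene Epyc. Ecm2, Aspn, Omd and Ogn follow each other on chromosome 13. Prelp and Fmod are neighbours on chromosome 1, beside Optc. Bgn lies on chromosome X and Podn on chromosome 4. Aspn, Omd and Ogn lie inside Cenpp, a centromere gene on the opposite strand with 11.3 to 21.8 RPKM, and the library kit does not mark strand, so that reads of Cenpp and of these 3 genes cannot be fully told apart where their exons overlap. Prelp overlaps Gm15851 on the opposite strand (mean of 11.4 RPKM) and Podn overlaps Scp2 on its own strand (mean of 18.2 RPKM), more than its own mean of 0.659 RPKM, so the values of Podn are the least certain.

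The 250 bases before the RefSeq start site (GRCm38.p6) were available for 8 of the 10 genes. Those of the chromosome 13 neighbours are shown because their transcripts moved together between mice, and that of Bgn because its transcript moved least with the others. All are written 5′ to 3′ on the plus strand, which is the strand of the gene. Capitals mark matches, on either strand, to 4 motifs: the TATA box TATAAA, the Runx core TGTGGT, the AP-1 site TGANTCA and the GC box GGGCGG.
Aspn, chr13:49544193-49544442: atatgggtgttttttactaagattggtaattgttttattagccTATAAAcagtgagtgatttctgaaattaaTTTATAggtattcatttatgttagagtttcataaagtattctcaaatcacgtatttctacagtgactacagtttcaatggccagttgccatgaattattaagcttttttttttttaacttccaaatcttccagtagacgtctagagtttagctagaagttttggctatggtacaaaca
Omd, chr13:49582212-49582461: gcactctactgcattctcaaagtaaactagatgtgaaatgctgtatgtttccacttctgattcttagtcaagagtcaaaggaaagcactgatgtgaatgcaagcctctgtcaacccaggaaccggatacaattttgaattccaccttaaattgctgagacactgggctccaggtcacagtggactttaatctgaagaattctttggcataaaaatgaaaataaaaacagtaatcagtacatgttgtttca
Ogn, chr13:49607765-49608014: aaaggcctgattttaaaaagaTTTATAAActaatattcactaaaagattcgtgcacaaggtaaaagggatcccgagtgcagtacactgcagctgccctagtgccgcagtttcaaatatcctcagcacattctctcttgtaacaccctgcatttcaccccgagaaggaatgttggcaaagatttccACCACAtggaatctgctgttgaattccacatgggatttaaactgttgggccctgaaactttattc
Bgn, chrX:73483351-73483600: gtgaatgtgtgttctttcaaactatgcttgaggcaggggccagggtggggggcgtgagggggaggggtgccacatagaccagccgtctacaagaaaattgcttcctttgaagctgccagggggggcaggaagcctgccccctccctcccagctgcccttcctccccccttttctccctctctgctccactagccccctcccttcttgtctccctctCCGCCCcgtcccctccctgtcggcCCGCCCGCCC

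The upstream sequences of the chromosome 13 genes were rich in A and T, with a GC content of 30.0% for Aspn, 38.4% for Omd and 42.0% for Ogn. That of Bgn was 64.4%, against a median of 52.4% over all 32851 promoter entries. Aspn held the TATA motif 207 and 178 bases before the start. Ogn held 2 overlapping matches to it, 229 and 227 bases before the start, and the Runx core 65 bases before the start. Bgn held the GC box 34, 10 and 6 bases before the start, the last 2 matches overlapping, and Omd held none of the 4 motifs. Of all promoter entries, 12.4% held the TATA motif, 14.05% the Runx core, 6.75% the AP-1 site and 32.7% the GC box. The RefSeq starts of Aspn and Omd were found in GENCODE transcripts and those of Ogn and Bgn were not. Distances for Ogn and Bgn therefore hold for the RefSeq start only. Such matches are descriptions of the sequence and no test of binding.

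The SLRP genes covered a wide range of levels, led by Dcn with a mean of 394 RPKM over the 16 mice, rank 73 among all genes with a unique symbol. Lum followed at 272 RPKM, Bgn at 151, Aspn at 126, Ogn at 74.3, Fmod at 61.3, Omd at 37.8, Prelp at 17.3, Kera at 7.22 and Podn at 0.659. Dcn was above Lum in 16 of 16 mice, as were Aspn over Ogn, Omd over Prelp, Prelp over Kera and Kera over Podn, each with an exact sign-flip p of 3.05e-05, the smallest that 16 mice can give. Of the 9 neighbouring steps, the one from Bgn to Aspn did not exceed the spread between mice (11 of 16 mice, exact sign-flip p = 0.0539 after adjustment over the 9 steps), and the step from Ogn to Fmod was marginal (11 of 16 mice, adjusted exact p = 0.0481).

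The order depends on the gene length used. The length implied by the deposited values was 2.76 times that of the principal GENCODE transcript for Bgn and 2.75 times for Podn, but 0.692 times for Omd. Per kb of the principal transcript, an alternative not planned in advance, Bgn came second with a mean of 416 RPKM, after Dcn (584) and ahead of Lum (230). On that scale Ogn and Fmod (exact sign-flip p = 0.559 after adjustment) and Omd and Prelp (0.135) did not differ beyond their spread.

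**Figure D1:**
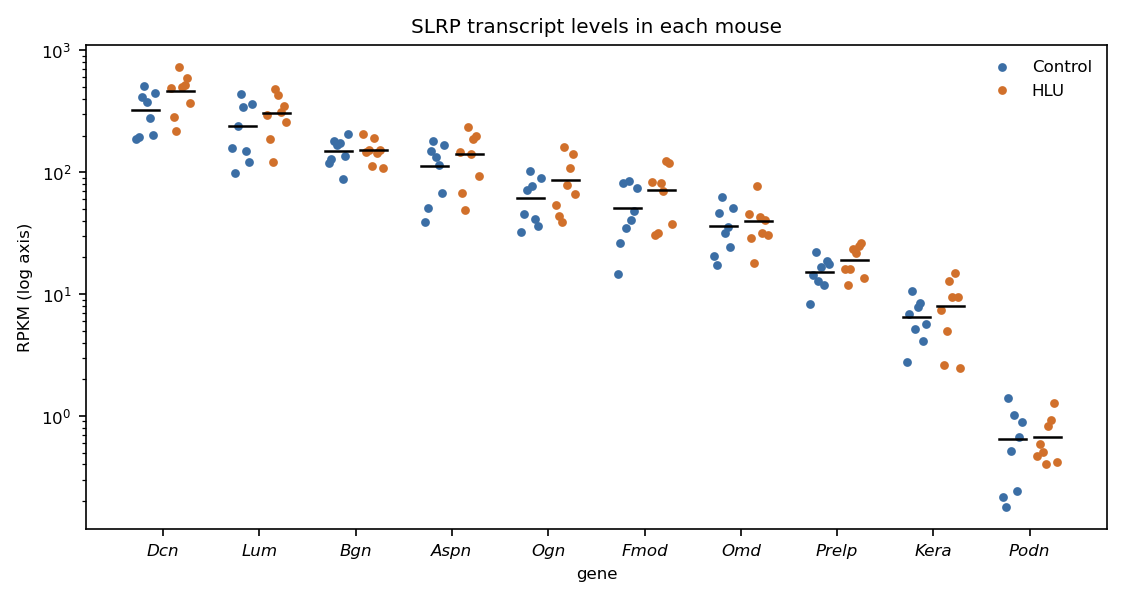
RPKM of the 10 SLRP genes on a log axis, in order of their mean, with 1 point per mouse, 8 Control (blue) and 8 HLU (orange), and a black line at each group mean. The 2 groups overlap for every gene, and the points of Bgn are the most tightly packed while those of Fmod and Podn spread the most.

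For each of the 10 genes, the comparison of HLU with Control asked whether a week without load altered its transcript abundance. None of the 10 passed an unadjusted p of 0.05 with a change of at least 1.2-fold in limma, a threshold that 1.11% of the 16973 features tested passed as higher in HLU, 4.76% as lower and 5.87% in either direction. None passed an adjusted p of 0.1, which 0% of all features did (1049 features, or 6.18%, had an unadjusted limma p under 0.05 at any fold). The log2 fold change (HLU minus Control) was above 0 for 10 of 10 genes, against 32.1% of all features, and its median was 0.33 against -0.10 over all features. With median-of-ratios scaling, 381 features passed the unadjusted threshold as higher and 395 as lower, and with quantile normalization 473 and 357, in place of 188 and 808. The log2 fold change was then above 0 for 47.5% and 50.2% of all features and again for 10 of 10 SLRP genes, with medians of 0.42 and 0.47 against -0.012 and 0.0011 over all features. The 10 values are not separate observations, since most of these genes moved together from mouse to mouse, as described further on.

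**Figure D2:**
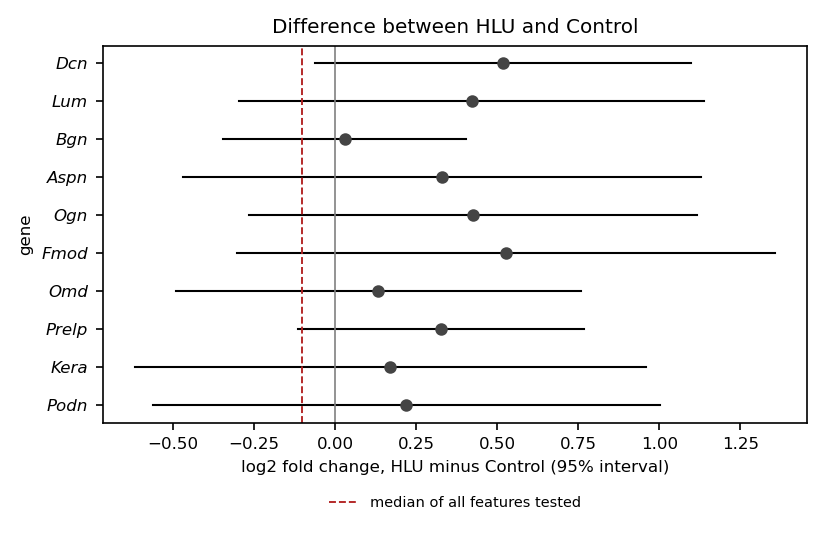
Log2 fold change of each SLRP gene, HLU minus Control, from limma on log2(RPKM + 0.1), with points for the estimates and lines for their 95% intervals (8 mice per group). All 10 estimates lie to the right of 0, from 0.03 for Bgn to 0.53 for Fmod, every interval includes 0, and the dashed line is the median of all features tested (-0.10).

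Dcn, which binds collagen fibrils and carries 1 glycosaminoglycan chain, had 187, 327 and 508 RPKM in the lowest, median and highest Control mouse and 217, 500 and 723 RPKM in the HLU mice. The ranges overlapped, 6 of 8 HLU mice being above the Control median and 3 above every Control mouse. The mean was 325 ± 126 RPKM in Control and 463 ± 165 RPKM in HLU animals (SD over n = 8 per group). This was a 1.43-fold difference on the log2(RPKM + 0.1) scale (95% interval 0.957 to 2.14), with a log2 fold change of 0.52 ± 0.28 (SE), an exact permutation p of 0.0970 and a limma adjusted p of 0.744. Dcn was the only gene of the family with an unadjusted limma p under 0.1 (0.0770). That p was under 0.05 without Control 4 (log2 fold change 0.62), without HLU 2 (0.61) or without HLU 3 (0.66). It ran from 0.0212 to 0.152 when 1 mouse was left out, the highest being without HLU 4 (0.41). Without the 2 smallest libraries the limma p was 0.204 (log2 fold change 0.39).

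Bgn, the closest relative of decorin, showed the smallest difference. Its lowest, median and highest values were 88.1, 151 and 208 RPKM in Control mice and 108, 149 and 205 RPKM in HLU mice, so the HLU mice lay wholly inside the Control range. The means were 150 ± 38.8 and 151 ± 33.4 RPKM (SD over n = 8 per group), the log2 fold change was 0.03 ± 0.18 (SE) and the exact permutation p was 0.873. The 95% interval of the fold ran from 0.787 to 1.32. Bgn also varied least between mice, its highest mouse having 2.36 times the lowest.

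Aspn, a member without a glycosaminoglycan chain that can bind TGF-beta and calcium, ranged over 39.0, 124 and 179 RPKM (lowest, median, highest) in Control mice and 49.2, 144 and 237 RPKM in HLU mice. Its means of 112 ± 54.0 and 140 ± 66.2 RPKM (SD over n = 8 per group) lay within the between-mouse spread (exact permutation p = 0.426). The 3 highest mice were HLU mice, and the lowest were of both groups.

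Among the members that can carry keratan sulfate, Lum averaged 239 ± 129 RPKM in Control and 304 ± 118 RPKM in HLU animals (SD over n = 8 per group, exact permutation p = 0.263). Its lowest, median and highest values were 98.3, 198 and 441 RPKM in Control and 121, 303 and 479 RPKM in HLU mice. Fmod, a collagen-binding SLRP abundant in tendon, had the largest log2 fold change of the family, 0.53 ± 0.39 (SE), and also the largest spread. Its values of 14.6, 44.4 and 85.4 RPKM in Control and 30.3, 75.7 and 123 RPKM in HLU mice covered an 8.39-fold range over the 16 mice. The group means of Fmod were 50.5 ± 26.5 and 72.0 ± 37.1 RPKM (SD over n = 8 per group, exact permutation p = 0.237).

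Omd, also called osteoadherin and made by osteoblasts, had means of 36.2 ± 16.03 and 39.4 ± 17.8 RPKM (SD over n = 8 per group, exact permutation p = 0.679). Its range of 17.3 to 63.1 RPKM in Control mice and 17.9 to 77.5 RPKM in HLU mice was nearly shared. Prelp, a heparin-binding member, had 15.3 ± 4.40 and 19.2 ± 5.54 RPKM (SD over n = 8 per group, exact permutation p = 0.159). Its 95% interval, 0.923 to 1.70-fold, was the narrowest after that of Bgn. Kera, best known from the cornea, had 6.43 ± 2.54 and 8.01 ± 4.53 RPKM (SD over n = 8 per group, exact permutation p = 0.677).

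Ogn, or mimecan, had lowest, median and highest values of 32.3, 58.2 and 101 RPKM in Control mice and 38.9, 72.2 and 162 RPKM in HLU mice. The 3 highest mice were all HLU mice, yet 3 of 8 HLU mice were below the Control median, and the means of 61.9 ± 26.5 and 86.6 ± 46.2 RPKM did not differ beyond the spread (SD over n = 8 per group, exact permutation p = 0.245). Podn, at 0.642 ± 0.441 and 0.675 ± 0.305 RPKM (SD over n = 8 per group, exact permutation p = 0.558), rested on the fewest reads of the family.

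The family as a whole was high or low in whole mice. The summed RPKM of the 10 genes was 998 ± 391 for Control and 1284 ± 434 for HLU (SD over n = 8 per group), or 0.276% ± 0.119 and 0.356% ± 0.128 of all summed RPKM. It ran from 581 in Control 1 to 1910 in HLU 4. Control 1 was the lowest of the 16 mice for 5 of the 10 genes and HLU 4 the highest for 5. HLU 5 and HLU 7 were above the 16-mouse median for 10 of 10 genes, while Control 1, Control 2 and HLU 8 were above it for 0 of 10. Low mice therefore occurred in both groups, with Control 1, Control 2, Control 6, Control 7, HLU 2, HLU 3 and HLU 8 all between 581 and 983 summed RPKM.

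The relative abundance of the members within a mouse does not depend on how libraries are scaled. Like the order of levels, it does depend on the gene length used, and the shares here are of the deposited RPKM. Dcn made up 32.7% ± 1.93 of the summed SLRP RPKM under load (Control) and 35.9% ± 1.64 after unloading (SD over n = 8 per group), a difference of 3.18 percentage points (exact permutation p = 0.00513). The lowest, median and highest shares were 30.2%, 32.7% and 36.1% in Control mice and 33.5%, 35.8% and 37.9% in HLU mice. The ranges overlapped, and Control 6 lay above the HLU median, but 8 of 8 HLU mice were above the Control median. The shares of all 10 genes, which are not independent because they sum to a whole, were compared, and with Benjamini-Hochberg adjustment over those 10 comparisons the exact permutation p for Dcn was 0.0513. Of the share of Dcn and the 7 marker scores described below, the closest relation was with endothelial markers (Pearson r = -0.44, permutation p = 0.0905, adjusted 0.634).

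The other 9 shares had an exact permutation p above 0.05. Bgn held 16.1% ± 4.32 in Control and 13.2% ± 5.59 in unloaded mice (SD over n = 8 per group, exact permutation p = 0.260), and Omd 3.62% ± 0.653 and 3.05% ± 0.612 (p = 0.0967, 7 of 8 HLU mice below the Control median). Without Control 5 or without HLU 4 the exact permutation p of Omd was under 0.05, at differences of -0.72 and -0.71 percentage points. Lum held 23.0% ± 4.81 and 23.3% ± 3.22, Aspn 10.9% ± 2.44 and 10.4% ± 1.94, Ogn 6.17% ± 0.806 and 6.50% ± 1.65, and Fmod 5.08% ± 1.90 and 5.41% ± 1.71. Prelp, Kera and Podn together held under 3% in both groups on average, though not in every mouse.

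**Figure D3:**
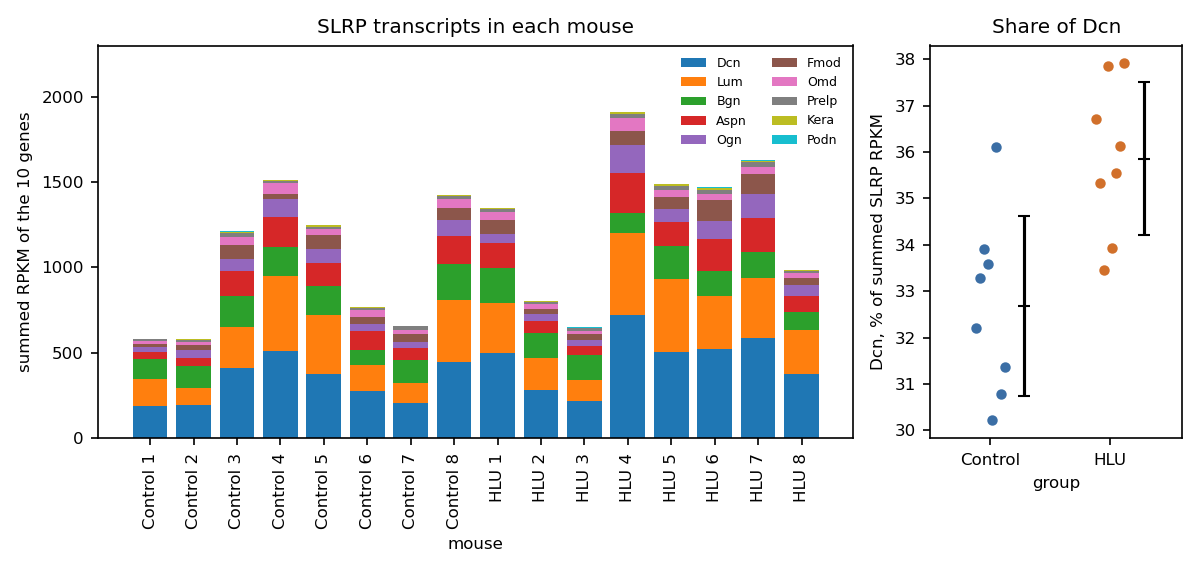
Left, bars of the summed RPKM of the 10 SLRP genes in each of the 16 mice, stacked by gene. Right, the share of Dcn in that sum with 1 point per mouse and the mean ± SD beside it (axis not from 0). Sums run from 581 to 1514 RPKM in Control and from 648 to 1910 RPKM in HLU. The share of Dcn is 32.7% ± 1.93 in Control and 35.9% ± 1.64 in HLU.

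The covariation of the members was measured within groups, on log2(RPKM + 0.1) centred on each group's mean, so that a difference between groups could not create it. All 45 pairs of the 10 genes had a Pearson r above 0 over the 16 mice, with a median of 0.615, and 27 of them had an adjusted permutation p under 0.05 (20 by Spearman's rho). Over all pairs of the features tested the median r was 0.0380, and 10.6% of those pairs reached the SLRP median.

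The tightest set was Dcn, Lum, Ogn, Omd and Aspn. Its 10 pairs had r from 0.763 to 0.974 and 10 of them passed the adjusted threshold. Dcn and Aspn, on different chromosomes, moved most closely of all (r = 0.974, rho = 0.971, permutation p = 1e-05, the smallest that 100000 permutations can give, adjusted 0.00015). The r was 0.960 in Control and 0.990 in HLU mice alone, and without the 2 mice farthest from the median it was 0.972. Dcn and its neighbour Lum followed (r = 0.936, rho = 0.924, permutation p = 1e-05), then Dcn with Omd (0.922) and with Ogn (0.911). Every pair of the set kept r above 0.7 in each group alone and without the 2 farthest mice.

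Fmod, Prelp, Kera and Podn made a looser set, with r from 0.363 to 0.864 and 5 of 6 pairs past the adjusted threshold. The chromosome 1 neighbours Fmod and Prelp were the closest of them (r = 0.864, rho = 0.782, permutation p = 0.00015, adjusted 0.000675). Kera, although next to Lum, was closer to Fmod (r = 0.770) and Prelp (0.770) than to Lum (0.410). Between this set and the first, the 20 pairs had a median r of 0.569, led by Fmod with Aspn (0.835). The 2 sets were drawn after the values had been seen.

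Bgn stood apart from both. Its r with the other 9 genes had a median of 0.358 and passed the adjusted threshold only with Podn (r = 0.629, rho = 0.653, permutation p = 0.0159, adjusted 0.0312). In Control mice its r with the others ran from 0.144 (Kera) to 0.800 (Ogn) and in HLU mice from -0.330 (Ogn) to 0.314 (Podn). The difference between the groups in these correlations was not tested.

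The 7 pairs on one chromosome had a median r of 0.864 and the 38 pairs on different chromosomes 0.586. The chromosome 13 neighbours whose upstream sequences are given above had r of 0.891 (Aspn and Omd), 0.884 (Aspn and Ogn) and 0.763 (Omd and Ogn). Ecm2, the SLRP-like gene next to Aspn, had r of 0.949 with it.

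**Figure D4:**
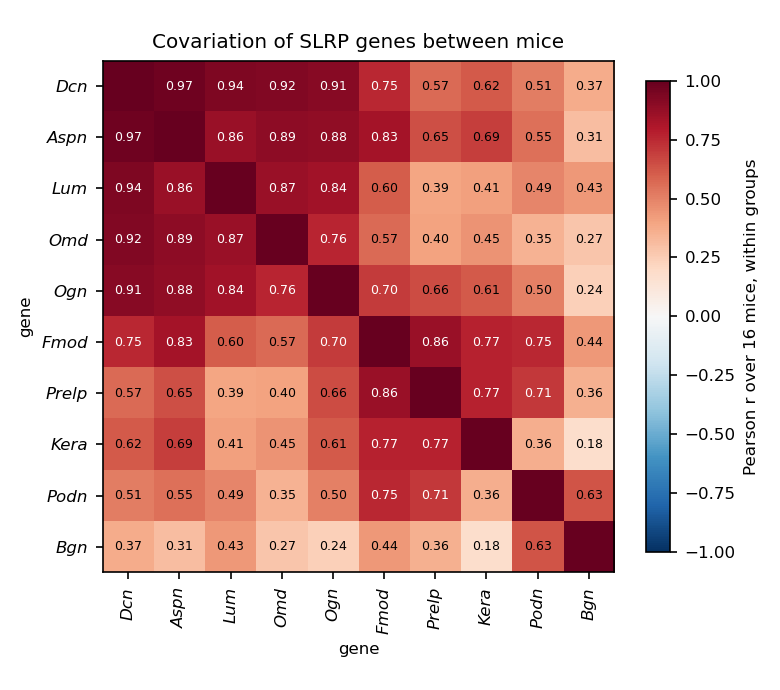
Pearson r between each pair of the 10 SLRP genes over 16 mice, on log2 values centred on the group means, with red for r above 0. Dcn, Aspn, Lum, Omd and Ogn form a dark block of r from 0.76 to 0.97, Fmod, Prelp, Kera and Podn a paler one, and the Bgn row is the palest.

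Outside the family, the 3 genes most like each member were found among genes with a mean of at least 2 RPKM, by the same within-group r over 16 mice. For Dcn they were Pls3 (an actin-bundling protein, r = 0.975), Cped1 (0.966) and Cdo1 (a cysteine dioxygenase, 0.956). Pls3 also led for Omd (0.905), followed by Fndc3b (0.903) and the transcription factor gene Tcf4 (0.899), and Fndc3b led for Lum (0.971), followed by the collagen gene Col8a1 (0.959) and Megf10 (0.943). For Aspn they were Pamr1 (0.952), Itgbl1 (0.951) and its neighbour Ecm2 (0.949). For Ogn they were Prrx1 (a homeobox factor of limb mesenchyme, 0.958), Abi3bp (0.956) and Itm2a (0.946).

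Those of the looser set differed. Fmod was closest to Cpxm2 (0.977), Tgfb3 (a TGF-beta ligand, 0.959) and Dbndd2 (0.958), Prelp to Hspa12b (0.931), Atf5 (0.918) and Zhx3 (0.909), and Kera to Palmd (0.885), Sparcl1 (0.873) and Meox2 (0.872). Podn was closest to Fam219a (0.926), Tmco3 (0.926) and Ift172 (0.916). Bgn was closest to Fat1 (a cadherin, 0.946), Alpl (the tissue-nonspecific alkaline phosphatase of mineralising osteoblasts, 0.930) and Creb3l1 (a factor of collagen secretion in osteoblasts, 0.929).

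Bone shaft holds several cell types, and in bulk RNA fewer cells of a type and less RNA per cell cannot be told apart. Each member was therefore set beside 7 marker scores, the mean centred log2 value of a list of marker genes. Of the 70 relations, 48 had an adjusted permutation p under 0.05 by Pearson's r, and fewer did by Spearman's rho. The counts below are by r. The granulocyte score moved against the family, with a median r of -0.71 and 9 of 10 genes past the threshold, Fmod (-0.83), Aspn (-0.81) and Dcn (-0.80) most of all. The erythroid score did so for 4 of 10 genes (Dcn, Lum, Ogn and Omd, r from -0.54 to -0.62). By rho the adjusted permutation p was 0.0473 for Lum, 0.0664 for Ogn, 0.0721 for Omd and 0.0843 for Dcn. In HLU mice alone the r of these 4 genes ran from -0.79 (Ogn) to -0.92 (Dcn). In Control mice alone it ran from -0.15 (Omd) to -0.35 (Lum). For Fmod and Prelp the r with the erythroid score was 0.42 and 0.58 in Control mice but -0.82 and -0.76 in HLU mice. The difference between the groups in these correlations was not tested.

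The scores of connective tissue moved with the family. That of periosteal and marrow stroma (Pdgfra, Dpt, Cxcl12 and others, 9 genes) did so for 9 of 10 genes, with r of 0.925 for Aspn, 0.912 for Dcn, 0.873 for Omd, 0.870 for Lum and 0.806 for Ogn. The tendon score (Tnmd, Scx, Thbs4 and others, 7 genes) did so for 8 of 10 genes and was closest to Fmod (r = 0.968, rho = 0.935, permutation p = 1e-05, 0.948 without the 2 farthest mice), Prelp (0.840) and Aspn (0.828). The osteoblast and osteocyte score did so for 8 of 10 genes and was closest to Bgn (r = 0.781, rho = 0.829, permutation p = 0.00107, adjusted 0.00499), which had r of 0.280 with the stroma score and 0.349 with the tendon score, and of 0.653 with the endothelial score (adjusted permutation p = 0.0166). Alpl, among the genes most like Bgn, belongs to that marker list. The adipocyte score passed for 6 genes (Fmod 0.852) and the endothelial score for 4. By rho the adipocyte score did not pass for Ogn, Aspn and Kera (adjusted permutation p of 0.0578, 0.0721 and 0.0578). Nor did the stroma score for Prelp (0.0545) and Podn (0.0578), the osteoblast and osteocyte score for Prelp (0.062) or the granulocyte score for Podn (0.0578). No test of the difference between these correlations was made.

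**Figure D5:**
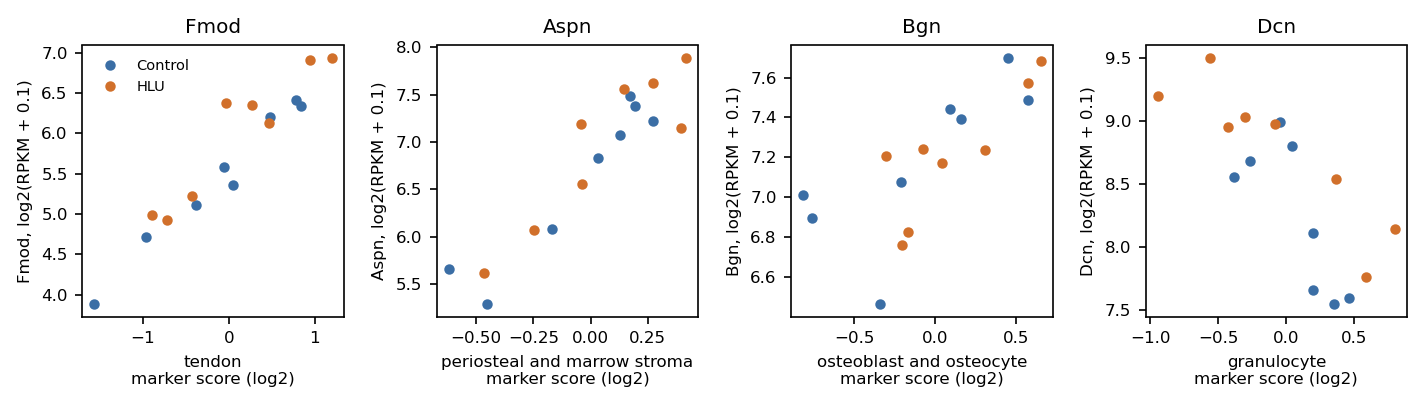
Log2(RPKM + 0.1) of Fmod, Aspn, Bgn and Dcn against the tendon, stroma, osteoblast and osteocyte, and granulocyte marker scores, with 1 point per mouse, Control blue and HLU orange. Within groups r was 0.968, 0.925, 0.781 and -0.80, and in each panel points of both groups lie along the same course.

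With the erythroid and granulocyte scores as covariates, 13 of the 45 pairs had an adjusted p under 0.05 and the median r was 0.384. With the osteoblast and osteocyte score as covariate 14 pairs did, and Bgn then had a median r of -0.28 with the other genes. With the stroma score, an alternative added after seeing the data, 4 pairs did and the median r was 0.244, while Dcn and Aspn kept r of 0.838 and Fmod and Prelp 0.765.

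No marker score differed between HLU and Control beyond the between-mouse spread. The largest differences were in the erythroid score (-0.56, exact permutation p = 0.0853) and the adipocyte score (0.43, p = 0.223), and the granulocyte score differed by -0.14 (p = 0.561). The summed level of the 10 erythroid markers kept was 3131 to 8879 RPKM in Control and 1757 to 4637 RPKM in HLU mice, that of the 7 tendon markers 24.0 to 174 and 45.7 to 271 RPKM, and that of the 9 stroma markers 234 to 321 and 250 to 369 RPKM. None of the markers listed was at 0 in all mice. With the erythroid and granulocyte scores as covariates, the log2 fold change was 0.68 for Fmod (limma adjusted p = 0.123) and 0.42 for Prelp (limma adjusted p = 0.163), both past the unadjusted threshold, while that of Omd was -0.079. In that fit 6.85% of all features passed as higher and 16.6% in either direction. The 2 of 10 SLRP genes, both higher, were thus near the share in either direction and above the share called higher. This difference was not tested. With the stroma score it was 0.33 for Dcn, also past the unadjusted threshold, as were 1.1% of all features as higher and 5.82% in either direction. The part of residual blood, stroma or tendon in the group values of the SLRP genes was not tested beyond these fits.

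Of 8 further SLRP genes, 5 passed the filter and 0 passed the unadjusted threshold. Chad (chondroadherin) had 14.6 ± 7.90 RPKM in Control and 15.8 ± 8.23 RPKM in unloaded mice, and Ecm2 13.4 ± 4.74 and 17.5 ± 8.58 RPKM (SD over n = 8 per group). Epyc, Optc and Nyx were below the filter, with means under 0.3 RPKM in both groups. The neighbours of expressed SLRP genes were thus not all expressed, Epyc having 0.0210 ± 0.0258 RPKM in Control mice beside Kera, Lum and Dcn, and Optc 0.0511 ± 0.0334 RPKM beside Prelp and Fmod (SD over n = 8).

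The genes that make the sugar chains and the collagen that SLRPs bind were read from lists. Of 30 genes of glycosaminoglycan synthesis kept, 0 passed the unadjusted threshold as higher and 1 as lower, with a median log2 fold change of -0.06 against -0.10 over all features. That gene was B3galt6, which adds a galactose of the linker between core protein and chain, with 2.03 ± 0.325 RPKM in Control and 1.48 ± 0.619 RPKM in unloaded mice (SD over n = 8 per group, log2 fold change -0.49, exact permutation p = 0.0252, limma adjusted p = 0.744). B4galt4, a galactosyltransferase used in keratan sulfate, had 3.69 ± 0.516 and 3.07 ± 0.443 RPKM (SD over n = 8 per group, log2 fold change -0.26, exact permutation p = 0.0258, limma adjusted p = 0.744), just under the 1.2-fold limit. B3galt6 did not pass with median-of-ratios scaling (log2 fold change -0.40), quantile normalization (-0.42), voom (-0.43) or the erythroid and granulocyte covariates (-0.47), and it was not tested with a minimum of 2 RPKM.

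Of 23 fibrillar collagen, collagen-processing and associated matrix genes kept, 0 passed in either direction (median log2 fold change 0.08). Sparc, a collagen-binding bone glycoprotein, had 1011 ± 413 and 940 ± 389 RPKM and Col1a2, a chain of type I collagen, 341 ± 155 and 310 ± 138 RPKM (SD over n = 8 per group). Their log2 fold changes were -0.08 and -0.10, while 15 of the 23 genes were above 0 and the list ran from -0.60 to 0.53, a range that includes Dcn (0.52). Of 10 other extracellular proteoglycan genes kept, 0 passed (median 0.01), the most abundant being Srgn (serglycin) and Esm1 (endocan).

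Of the 12 osteoblast and osteocyte markers, 1 passed the unadjusted threshold as higher, 0 as lower and 8 had a log2 fold change above 0 (median 0.16, from -0.26 to 0.79). That gene was Mepe, a matrix protein of osteocytes, with 140 ± 75.1 RPKM in Control and 226 ± 78.5 RPKM in unloaded mice (SD over n = 8 per group, exact permutation p = 0.0392, limma adjusted p = 0.744), and its call was lost without Control 1 (0.66), Control 6 (0.64) or the 2 smallest libraries (0.68). Of 6 adipocyte markers kept, 1 passed as higher and 6 were above 0 (median 0.46), the fatty acid carrier Fabp4 having 467 ± 98.0 and 587 ± 98.1 RPKM (exact permutation p = 0.0329) and Adipoq 54.0 ± 14.6 and 54.1 ± 13.9 RPKM (exact permutation p = 0.948). The call of Fabp4 was lost in 12 of its 28 alternatives. Of 10 erythroid markers, 3 passed as lower and 0 were above 0 (median -0.59). The globin genes Hbb-b1 and Hbb-b2 had 1271 ± 638 and 734 ± 306 RPKM and 1388 ± 658 and 856 ± 376 RPKM (exact permutation p = 0.0191 and 0.0496), and their near-identical sequences leave the split of reads between them uncertain. Klf1, an erythroid transcription factor, had 41.6 ± 14.04 and 27.8 ± 15.9 RPKM (exact permutation p = 0.0511). With the erythroid and granulocyte covariates none of these 3 passed. All 3 are part of the erythroid score, so that fit is no test of them. Over 28 alternatives, that fit included, the call was lost in 1 for Hbb-b1 (that fit itself), 13 for Hbb-b2 and 11 for Klf1.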

How the data were processed

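Femoral cortical bone RNA of 8 Control and 8 HLU mice was measured by RNAseq, 1 library per mouse, each mouse assigned by its label. The 10 SLRP genes and all gene lists were chosen with earlier results of these data known. From TruSeq v2 libraries run 8 to a lane, aligned by the authors with TopHat2, came the deposited RPKM values, in 1 file per mouse. The mouse-to-lane assignment was not given in the sources used here, so lane and group cannot be told apart. The submitters' processing notes name the mm9 build and DESeq2. Gene positions and neighbours here come from GENCODE M21 and promoters from RefSeq, both on GRCm38, and no coordinates were converted.

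Whole reads were recovered from the RPKM steps (tolerance 0.003 reads) for 100% of the features kept. Reads are not independent molecules. Of the features listed, 3887 carry the symbol Rnf135, and these were tested but not named. The 16973 features averaging 0.5 RPKM or more were fitted by limma 3.58.1 (R 4.3.3) to log2(RPKM + 0.1), using a variance trend and Benjamini-Hochberg adjustment over all of them. Calls needed a change of at least 1.2-fold and either p below 0.05 before adjustment or below 0.1 after it. Single genes, shares and scores were compared by two-sided exact permutation tests over 12870 splits (smallest p 0.000155), neighbouring levels by exact sign-flip tests, and correlations by 100000 permutations within groups with adjustment over 45 pairs, 70 marker relations or 7 relations of the Dcn share (Python 3.11.15, numpy 2.4.6, scipy 1.17.1, pandas 2.3.3, matplotlib 3.10.9). The fits, tests and read recovery were tested on simulated data.

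All 10 members are named, with the genes of the other lists that had an unadjusted limma p under 0.05. For each member the 3 genes most alike are named. Of the 2 most abundant genes of each other list, only some are named. Of the marker lists, 2 of 9 cartilage genes passed the filter and gave no score. The skeletal muscle list was not analysed here. Nothing in the labels says how mice were housed or processed in groups, so p-values measure the spread between these mice. Alternatives are listed in the closing section.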

Additional observations from a re-analysis of the deposited data

Results flagged for a closer look

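Levels and shares of the 10 SLRP genes were examined for a single mouse far from the other 7 of its group, which chance alone gives in about 1 of 20 groups. Of 40 groups examined, 1 held such a mouse: Prelp made up 2.48% of the summed SLRP RPKM in HLU 3, against a mean of 1.56% ± 0.409 (SD, n = 8) in HLU mice.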

How the results depend on the processing

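The RPKM comparison gave 188 features higher and 808 lower at the unadjusted threshold, 0 at the adjusted one, 0 SLRP genes and 1 pathway gene. It was repeated under the alternatives below, with voom on recovered reads and the stroma score as covariate added after seeing the data. edgeR and DESeq2 on recovered reads were not run, since the deposited unit is RPKM. Median-of-ratios scaling gave 381 higher and 395 lower features, quantile normalization 473 and 357, and voom 377 and 415, so the split depends on the scaling. The median log2 fold change of all features was -0.10 on RPKM. Without the filter 391 features were higher and 1 passed adjustment, with a minimum of 2 RPKM 106 were higher, and without the 2 smallest libraries 108. The erythroid and granulocyte covariates gave 1163 higher, 1658 lower and 105 adjusted, and voom 1 adjusted. Leaving out 1 mouse gave 117 to 363 higher (without HLU 7 and HLU 2), 471 to 1385 lower (the same mice) and 0 to 1 adjusted.

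SLRP genes at the unadjusted threshold numbered 1 (Dcn) under median-of-ratios scaling, voom and the stroma covariate, 2 (Fmod and Prelp) under the erythroid and granulocyte covariates, and 0 to 1 without 1 mouse. Of all 16973 features, 1.1% passed as higher with the stroma covariate, 6.85% with the erythroid and granulocyte covariates, and 381 features with median-of-ratios scaling. The numbers of all features with voom and without 1 mouse are given above. The lowest adjusted limma p of any SLRP gene under any alternative was 0.123. Pathway genes numbered 2 with a pseudocount of 0.01, the stroma covariate or the replicate block, 0 with a minimum of 2 RPKM, either rescaling or voom, 9 with the erythroid and granulocyte covariates, 7 with the osteoblast covariate and 1 to 4 without 1 mouse. They were drawn from the 5 further SLRP, 30 glycosaminoglycan, 23 collagen and 10 other proteoglycan genes kept. With the erythroid and granulocyte covariates 16.6% of all features passed in either direction. With the osteoblast covariate 129 of the 16973 features passed as higher and 647 as lower. The pathway counts were not tested against these. The sign of the log2 fold change turned for 4 genes with values near 0: Omd -0.079 and Kera -0.0093 with the erythroid and granulocyte covariates, Bgn -0.10, Omd -0.052 and Podn -0.044 with the osteoblast covariate, Bgn -0.0059 and Omd -0.059 with the stroma covariate, and Bgn -0.047 and Omd -0.032 without the 2 smallest libraries. Without 1 mouse Bgn ranged from -0.074 to 0.10 and Omd from -0.022 to 0.28.

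The share of Dcn differed by 2.83 to 3.67 points without 1 mouse and by 3.81 points in recovered reads (exact permutation p = 0.0334). Its unadjusted exact p was under 0.05 in all 20 alternatives, by permutation or, with the replicate block, by sign flips. These p-values were not adjusted over the shares of all members. With that adjustment the exact permutation p of the main comparison was 0.0513, so the alternatives do not show a difference that holds after adjustment. The share of Lum differed by -1.30 points without the 2 smallest libraries. Without 1 mouse the shares differed by -0.53 to 1.22 points (Lum), -0.086 to 0.65 (Fmod), -1.07 to 0.084 (Aspn), -0.26 to 0.035 (Prelp), -0.011 to 0.0016 (Podn) and -0.72 to -0.42 (Omd). Correlated SLRP pairs numbered 27, and 13, 14 and 4 with the erythroid and granulocyte, osteoblast and stroma covariates, and 22 to 30 otherwise. Marker relations by Pearson's r numbered 48, and 9 and 13 with the first 2 of these, where fewer scores were tested.

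Samples of the groups share replicate numbers but nothing in the labels pairs them. Same-numbered mice correlated above 0.1 in 3 of 8 pairs, and 1 of 8 Control mice was closest to its own number. With the replicate block 199 features were higher, 840 lower and 0 SLRP genes passed, and the share of Dcn differed by 3.18 points (exact sign-flip p = 0.0312). Podn, with as few as 11 reads in a mouse, is limited by depth.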
